A study of Homo sapiens with 15 samples.

Results

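Interferon-stimulated genes are the genes that cells switch on when interferon binds its receptors, and 46 of them were followed by symbol through the expression table of the NCI-H1975 cell line. The 46 genes are a list of known interferon targets, taken by symbol among 61248 loci in the table, and each of them matched 1 locus. NCI-H1975 is an established human lung adenocarcinoma line that carries a mutated EGFR. The 15 libraries fall into 5 groups of 3, all of this line: control, named only so; almonertinib, a drug that blocks the EGFR kinase; EGF, the growth factor that activates the receptor; siNC, a control siRNA; and siEGFR, an siRNA aimed at EGFR. The labels give no dose, no treatment time and no medium, so it is not known what else differed between the siRNA groups and the rest. They also do not tell whether the replicates were separate cultures, so the p-values cover only variation from library to library, which could be technical.

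Type I interferons bind the receptor IFNAR, whose kinases JAK1 and TYK2 phosphorylate STAT2. STAT2 and IRF9 are subunits of the factor ISGF3, which binds the interferon-stimulated response element (ISRE) of its targets. The response to interferon gamma runs through another element, the gamma-activated site (GAS). Many of the targets restrict viruses, and several are transcribed at a basal level in epithelial cells and tumour lines without added interferon.

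The promoters show which genes carry the element. RefSeq windows on GRCh38.p14, from 250 bases before to 50 bases after the transcription start, were at hand for 36 of the 46 genes. The ISRE core was searched as GAAA, any 2 bases and GAAA again, and the gamma-activated site as TTCNNNGAA, both on either strand; the 2 motifs were counted separately, and matches may overlap. The ISRE core was found in 24 of the 36 genes (66.7%), against 3.57% of all 35116 windows and 4.38% of the 27305 genes with a window. The gamma-activated site was found in 12 genes (33.3%), against 7.66% of all windows and 9.38% of all genes. The 250 bases before the start are printed for 5 genes whose responses are described below, 4 with the core and STAT2 without it, as the RefSeq sequence 5' to 3' on the strand of the gene, with the ISRE cores in capitals. The windows are chr12:112938224-112938473 on the plus strand for OAS3, chr1:89065209-89065458 on the minus strand for GBP1, chr1:27672193-27672442 on the minus strand for IFI6, chr1:1013247-1013496 on the plus strand for ISG15 and chr12:56360108-56360357 on the minus strand for STAT2.
OAS3: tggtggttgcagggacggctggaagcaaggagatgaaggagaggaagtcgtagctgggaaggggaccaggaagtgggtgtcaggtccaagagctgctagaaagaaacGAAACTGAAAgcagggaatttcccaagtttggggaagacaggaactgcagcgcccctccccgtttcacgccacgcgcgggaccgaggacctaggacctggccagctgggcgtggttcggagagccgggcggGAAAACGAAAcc
GBP1: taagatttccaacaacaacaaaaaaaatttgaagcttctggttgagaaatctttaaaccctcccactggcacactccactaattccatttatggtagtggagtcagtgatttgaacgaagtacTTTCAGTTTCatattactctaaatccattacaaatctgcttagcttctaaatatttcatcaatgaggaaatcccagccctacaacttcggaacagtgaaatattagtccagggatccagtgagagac
IFI6: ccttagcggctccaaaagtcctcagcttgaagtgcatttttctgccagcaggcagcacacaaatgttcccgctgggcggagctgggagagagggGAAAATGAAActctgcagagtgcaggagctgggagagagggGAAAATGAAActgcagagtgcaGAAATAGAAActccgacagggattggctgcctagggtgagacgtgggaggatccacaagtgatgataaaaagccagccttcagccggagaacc
ISG15: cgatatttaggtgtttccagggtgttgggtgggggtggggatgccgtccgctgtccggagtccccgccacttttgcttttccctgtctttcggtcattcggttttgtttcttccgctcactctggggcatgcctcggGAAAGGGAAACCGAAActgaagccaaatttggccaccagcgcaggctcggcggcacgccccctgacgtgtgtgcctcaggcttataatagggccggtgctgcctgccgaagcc
STAT2: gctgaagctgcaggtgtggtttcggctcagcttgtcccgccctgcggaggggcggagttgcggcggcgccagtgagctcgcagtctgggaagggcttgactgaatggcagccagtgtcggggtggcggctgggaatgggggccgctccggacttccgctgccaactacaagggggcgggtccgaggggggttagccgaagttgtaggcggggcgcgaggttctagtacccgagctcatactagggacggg
Counted so that -1 is the base before the start, the cores of OAS3 begin at -143 and -12, that of GBP1 at -127, and those of IFI6 at -156, -115 and -93. In ISG15 the cores at -113 and -107 overlap and read as 1 run of capitals. A match describes these letters and does not show that a factor binds there. The counts of cores given below for each comparison are to be read beside the 24 of 36. The share with the core among all loci called in a comparison was not counted.

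Levels are FPKM, fragments per kilobase of gene scaled to library depth, which allows genes to be set side by side as far as the gene lengths the authors used are right. Of the 46 genes, 40 reached 1 FPKM in at least 3 libraries and were tested; the other 6 stayed below 1 FPKM in every library. The median of the 46 group means was 4.45 FPKM in control, 3.49 with almonertinib, 4.03 with EGF, 4.72 with siNC and 4.13 with siEGFR. The number of genes with a mean of at least 10 FPKM was 15, 12, 15, 16 and 13 in the same order. Most of these genes were therefore low, and a few were abundant. BST2, which tethers budding virus to the cell, stood at 427, 494 and 464 FPKM in the control libraries. IFITM3, a membrane protein that blocks viral entry, was at 365, 526 and 446 FPKM there. ISG15, a ubiquitin-like modifier, was at 81.0, 108 and 95.7 FPKM. The group with the highest mean was siNC for 19 of the 46 genes, almonertinib for 13, control for 8, EGF for 6 and siEGFR for 0. The lowest mean lay in the almonertinib group for 20 genes and in siEGFR for 16.

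**Figure D1:**
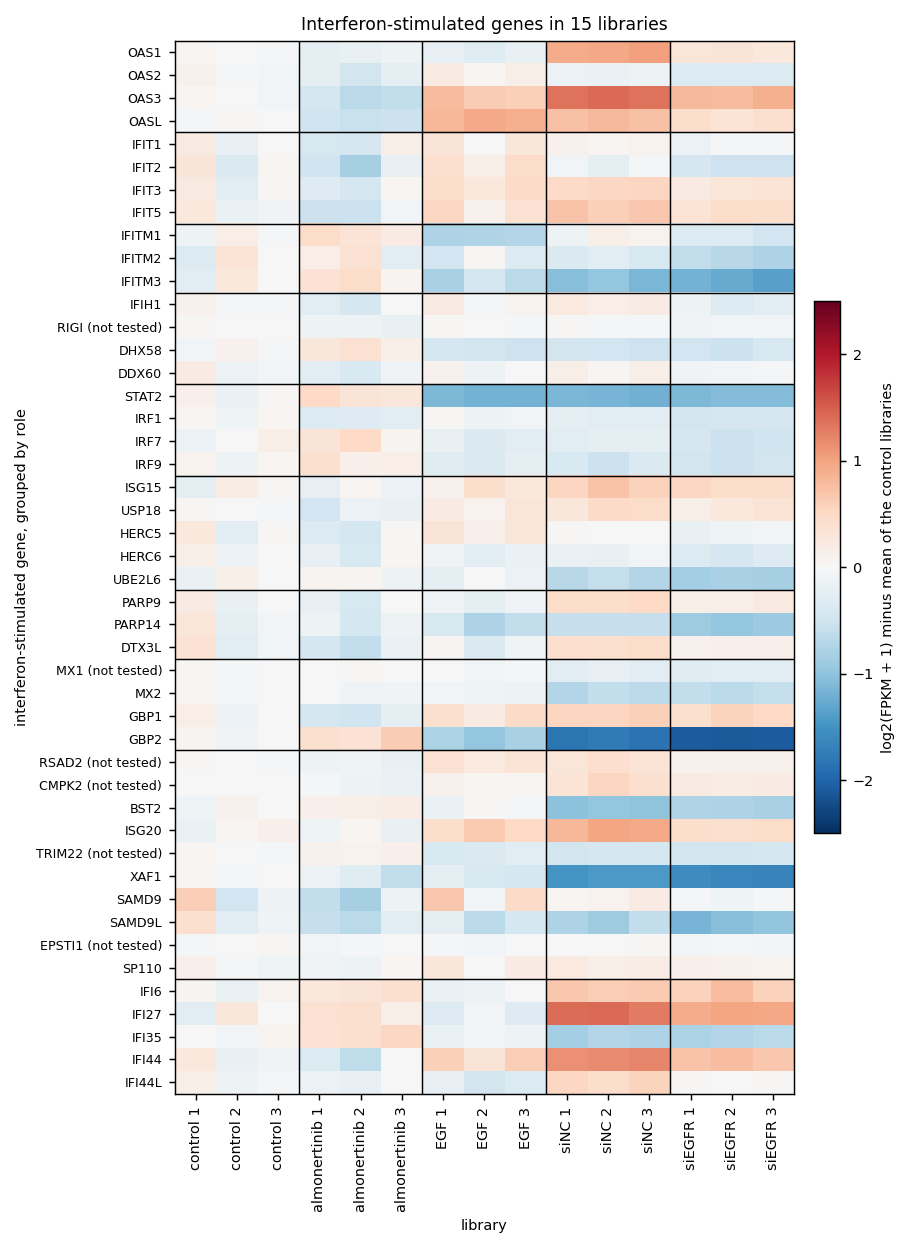
Log2 ratio of each library's FPKM + 1 to the mean of the control libraries, for the 46 interferon-stimulated genes (rows, grouped by role, the 6 not tested marked) and the 15 libraries (columns). The siRNA columns hold the strongest colours, with GBP2, STAT2 and XAF1 low and OAS3, IFI27 and IFI44 high, and control 1 (7.07 FPKM) differs from control 2 (2.79 FPKM) for SAMD9.

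The libraries held 18009903 to 34908302 reads, and EGFR and RNA-quality transcripts differed between them. EGFR was at 28.0, 22.3 and 22.8 FPKM in control, 19.2, 15.4 and 15.5 with almonertinib, 30.2, 22.1 and 23.9 with EGF, 49.4, 49.4 and 49.8 with siNC, and 29.9, 28.6 and 28.9 with siEGFR. Every siEGFR library thus lay below every siNC library, with part of the transcript remaining, but above every control library. Control 1 and almonertinib 3 stood apart within their groups. In control 1, 2 and 3 the level of MALAT1, a nuclear transcript, was 99.4, 48.5 and 70.0 FPKM, and with almonertinib it was 66.6, 55.1 and 86.0. It was 45.5 to 61.3 FPKM with EGF and 31.2 to 39.8 in the siRNA libraries. NEAT1, another nuclear RNA, was at 16.6 to 25.3 FPKM in control, 20.7 to 25.1 with almonertinib, 9.44 to 11.2 with EGF and 7.69 to 9.11 in the siRNA libraries. The part of these shifts in the results was not tested. All 6 epithelial markers reached 1 FPKM, summing to 923 to 1142 FPKM, but the members differed between groups: from control to siNC the mean of EPCAM went from 6.58 to 35.2 FPKM, KRT7 from 56.4 to 303 and KRT19 from 590 to 335. Of 6 leukocyte markers only CD14 did, and none of 3 markers of plasmacytoid dendritic cells, the main interferon producers of blood. Of the others, PTPRC stayed at or below 0.062 FPKM and LYZ was at 0 in 12 libraries. Endothelial markers reached 1 FPKM for 2 of 3 and fibroblast markers for 2 of 4, with DCN at 0 in 13 libraries. The fibroblast marker COL1A2 was abundant, with means of 328 FPKM in control, 353 with almonertinib, 195 with EGF, 131 in siNC and 178 in siEGFR. COL1A1 had means of 3.88 FPKM with EGF to 14.4 in siEGFR. The part of these differences in the results was not tested. The leukocyte sum was 30.7 to 41.7 FPKM in control, almonertinib and EGF and 3.97 to 8.05 FPKM in the siRNA groups. In such bulk RNA, fewer cells of a kind and less RNA per cell cannot be told apart.

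Almonertinib against control asks how blocking the receptor moves these genes. The list split: 7 of the 40 tested genes rose (17.5%) and 10 fell (25%), by small amounts, while 23 did not pass the threshold (limma, Benjamini-Hochberg adjusted p under 0.05). Among all 14999 loci tested, 30.1% were called, 12.1% rising and 18% falling, so the shares lay near the background. The OAS genes, sensors of double-stranded RNA, fell, whereas transcription factors STAT2 and IRF7 rose. Changes ran from -0.57 to 0.46 on the log2(FPKM + 1) scale, and none reached 2-fold. The median change of the 40 genes was -0.20, beside -0.06 over all loci.

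OAS3 was at 2.70, 2.60 and 2.40 FPKM in control and 1.64, 1.24 and 1.32 with almonertinib. The groups did not overlap, and the change was -0.57 ± 0.07 (SE, n = 3 per group, adjusted p = 0.00012). OASL, a catalytically inactive family member, was at 6.17, 6.54 and 6.37 FPKM in control and 4.24, 3.97 and 4.10 with the drug (-0.53 ± 0.05, adjusted p = 1.71e-05). OAS1 moved less, from 2.01, 1.95 and 1.81 to 1.5, 1.57 and 1.67 FPKM (-0.18 ± 0.06, adjusted p = 0.0275), and with GC and length trends removed its change was 0.0007. OAS2 went from 1.80, 1.55 and 1.5 to 1.21, 0.898 and 1.21 FPKM (-0.31 ± 0.07, adjusted p = 0.00652). All 4 OAS genes were lower in every almonertinib library than in any control library. GBP1, an interferon-induced GTPase, fell from 3.32, 2.46 and 2.81 to 1.85, 1.71 and 2.24 FPKM (-0.39 ± 0.10, adjusted p = 0.00897). IRF1, a transcription factor that interferon gamma induces, fell by 0.31. IFIT2, which binds foreign RNA, measured 14.9, 8.83 and 12.2 FPKM in control libraries and 7.94, 6.11 and 10.2 with the drug, so its libraries overlapped (-0.51 ± 0.17, adjusted p = 0.0411). The other falls were USP18, which removes ISG15 from proteins (-0.27), XAF1, a pro-apoptotic factor (-0.36), and SAMD9L, an antiviral translation regulator (-0.51).

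The rises were led by GBP2, another GTPase of the family, at 26.6, 23.7 and 25.5 FPKM in control and 33.9, 32.5 and 39.6 with almonertinib (0.46 ± 0.07, adjusted p = 0.000561). IFI35, an interferon-induced leucine zipper protein, was at 32.8, 31.5 and 35.4 FPKM and 43.0, 44.1 and 47.7 FPKM in the same groups (0.42 ± 0.06, adjusted p = 0.000259). For both genes every treated library was above every control library. STAT2 was at 18.5, 14.8 and 17.1 FPKM in control and 24.2, 21.1 and 20.7 with the drug (0.37 ± 0.07, adjusted p = 0.00298). IFITM1 (0.33), IFI6, a membrane protein that inhibits virus replication (0.33), IRF7, which drives interferon genes (0.29), and DHX58, a regulator of RNA sensing (0.27), also rose. Among the 3 most abundant genes, BST2 was at 507, 513 and 523 FPKM with the drug (0.16 ± 0.06, adjusted p = 0.0791), above every control library but short of the threshold. IFITM3 stood at 566, 608 and 460 FPKM, overlapping the control range (0.30 ± 0.14, adjusted p = 0.115). ISG15, at 81.5, 97.1 and 84.6 FPKM, overlapped as well (-0.11 ± 0.11, adjusted p = 0.475). In all, 16 genes (40%) did not overlap between the groups, beside 35.2% of all loci. Of the genes with a promoter window, the ISRE core was in 2 of the 4 that rose and 2 of the 6 that fell.

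In a fit of these 6 libraries alone GBP2 and IFI35 rose and OAS3 and OASL fell, and no other gene of the list passed. That fit called 2.66% of all loci higher and 3.05% lower. With TPM scaling 4 rose and 14 fell, beside 7.29% and 25.8% of loci, and with median-ratio scaling 8 rose and 7 fell, beside 15.9% and 13.8%, OAS1, XAF1 and USP18 no longer passing. Without almonertinib 3 the falls numbered 21, beside 23.2% of loci, and without control 1 or without almonertinib 1 they numbered 6, beside 11.9% and 15.5%.

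EGF against control asks the opposite question, and the 2 contrasts share the control libraries. Here 6 of the 40 genes rose (15%) and 12 fell (30%), beside 22% and 27.3% of all loci (49.3% either way). The count that rose depended on the setting. It was 11 with median-ratio scaling and 11 without control 1, beside 24.7% and 24.5% of loci, so no departure from the background is read from it. The genes that rose were OAS3, OASL, IFIT3, GBP1, ISG20 and IFI44. Those that fell included the ISGF3 subunits STAT2 and IRF9, the factor IRF7, and IFITM1 and IFITM3. The median change was -0.10, beside -0.04 over all loci, and 1 gene passed 2-fold.

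That gene was STAT2, at 7.17, 6.79 and 6.83 FPKM with EGF against 14.8 to 18.5 in control (-1.16 ± 0.07, adjusted p = 5.53e-08). IRF9 was at 1.40, 1.06 and 1.32 FPKM in control and 0.818, 0.743 and 0.899 with EGF (-0.31 ± 0.09, adjusted p = 0.00945). Neither gene overlapped between the groups. GBP2 fell to 14.1, 12.5 and 14 FPKM (-0.85 ± 0.07, adjusted p = 6.8e-07). IFITM1 fell from 42.1, 51.8 and 44.2 to 26.5, 26.9 and 27.4 FPKM (-0.75 ± 0.09, adjusted p = 1.69e-05), and IFITM3 to 252, 325 and 274 FPKM (-0.64 ± 0.14, adjusted p = 0.00162). All 3 lay below every control library. PARP14, an ADP-ribosyltransferase, fell from 21.1, 14.1 and 16.1 to 12.6, 9.44 and 10.7 FPKM (-0.60 ± 0.13, adjusted p = 0.00195). DHX58 fell from 5.28, 6.11 and 5.39 to 3.84, 3.78 and 3.62 FPKM (-0.47 ± 0.07, adjusted p = 6.96e-05). The remaining falls were SAMD9L (-0.45), XAF1 (-0.36), IFI44L (-0.34), IRF7 (-0.28) and OAS1 (-0.24).

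OASL rose most with EGF, to 12.1, 13.3 and 12.8 FPKM from 6.17 to 6.54 in control (0.90 ± 0.05, adjusted p = 1.85e-08). OAS3 rose to 5.16, 4.53 and 4.37 FPKM (0.67 ± 0.07, adjusted p = 5.66e-06). The 4 OAS genes therefore did not move as 1 group, since OAS1 fell and OAS2 did not pass (0.13 ± 0.07, adjusted p = 0.159). ISG20, an exonuclease that degrades viral RNA, measured 0.765, 1.03 and 1.14 FPKM in control libraries and 1.68, 2.12 and 1.79 with EGF (0.53 ± 0.09, adjusted p = 0.000256). IFI44, a cytoplasmic interferon-induced protein, rose from 14.2, 10.1 and 10.9 to 18.2, 14.8 and 18.4 FPKM (0.52 ± 0.15, adjusted p = 0.0106). GBP1 rose from 3.32, 2.46 and 2.81 to 4.10, 3.44 and 4.39 FPKM (0.37 ± 0.10, adjusted p = 0.00638). IFIT3, a partner of IFIT1, rose by 0.40 (adjusted p = 0.0185). Among the abundant genes, BST2 (-0.06 ± 0.06, adjusted p = 0.498) and ISG15 (0.27 ± 0.11, adjusted p = 0.0538) did not pass. In all, 20 genes (50%) did not overlap between the groups, beside 51.1% of all loci. The ISRE core was in 5 of the 5 genes with a window that rose and 4 of the 9 that fell. Without control 1 the rises numbered 11, beside 24.5% of loci, and with median-ratio scaling 11 rose and 11 fell, beside 24.7% and 25.1%.

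**Figure D2:**
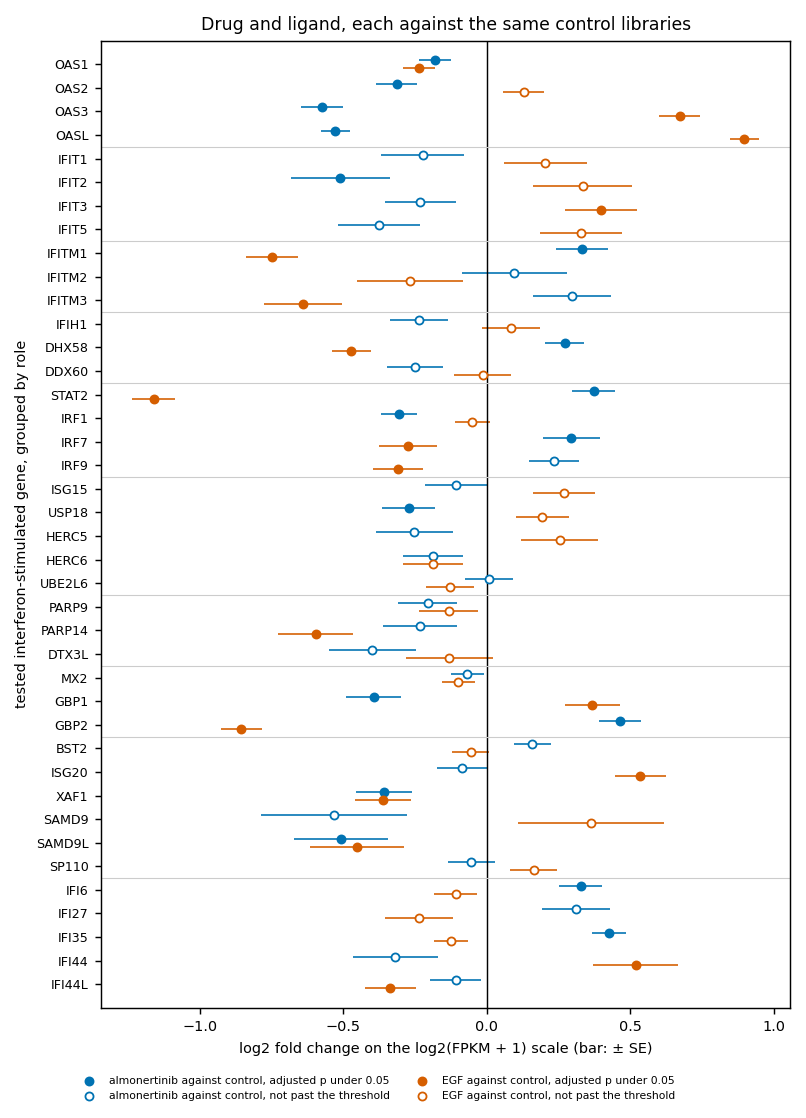
Log2 fold changes on the log2(FPKM + 1) scale (points; bars are ± SE, 3 libraries per group) of the 40 tested genes for almonertinib and for EGF, each against the same control libraries, with filled points past the threshold. STAT2, GBP2, IFITM1 and DHX58 lie to the right with the drug and to the left with EGF, while OAS3, OASL and GBP1 lie the other way round.

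Almonertinib against EGF compares the drug with the ligand directly. Of the 40 genes 13 were higher with almonertinib (32.5%) and 17 lower (42.5%), beside 30% and 32.6% of all loci (62.6% either way). STAT2, GBP2, IFITM1, IFITM3, DHX58, IRF7 and IRF9 were among those higher with the drug. OASL, OAS3, OAS2, all 4 tested IFIT genes, ISG15, GBP1, IFI44 and ISG20 were among those lower. The median difference was -0.06, beside -0.03 over all loci. On the log2(FPKM + 1) scale 5 called genes passed 2-fold, and by the ratio of mean FPKM 9 did, with SAMD9, ISG20, GBP1 and IRF9 added.

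STAT2 was at 24.2, 21.1 and 20.7 FPKM with almonertinib and 7.17, 6.79 and 6.83 with EGF (1.53 ± 0.07, adjusted p = 1.6e-09). OASL was at 4.24, 3.97 and 4.10 FPKM with the drug and 12.1, 13.3 and 12.8 with EGF (-1.42 ± 0.05, adjusted p = 1.05e-10). The other 3 genes past 2-fold on the log2(FPKM + 1) scale were GBP2 (1.32 ± 0.07), OAS3 (-1.25 ± 0.07) and IFITM1 (1.08 ± 0.09). None of these 5 genes overlapped between the groups. IFITM3 (0.94), DHX58 (0.74), IRF7 (0.57), IFI35 (0.55), IFI27 (0.55), IRF9 (0.54), IFI6 (0.43), PARP14 (0.36), IFI44L (0.23) and BST2 (0.21, and -0.0199 with GC and length trends removed) were also higher with the drug. The 4 IFIT genes were lower, from IFIT2 (-0.84 ± 0.17, adjusted p = 0.00086) to IFIT1 (-0.43 ± 0.14, adjusted p = 0.0209). SAMD9 was at 2.43, 1.96 and 3.82 FPKM with the drug and 7.45, 4.04 and 6.39 with EGF (-0.89 ± 0.25, adjusted p = 0.00794). In all, 26 genes (65%) did not overlap, beside 61.7% of all loci. Of the genes with a promoter window, the ISRE core was in 7 of the 10 that were higher and 11 of the 13 that were lower.

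**Figure D3:**
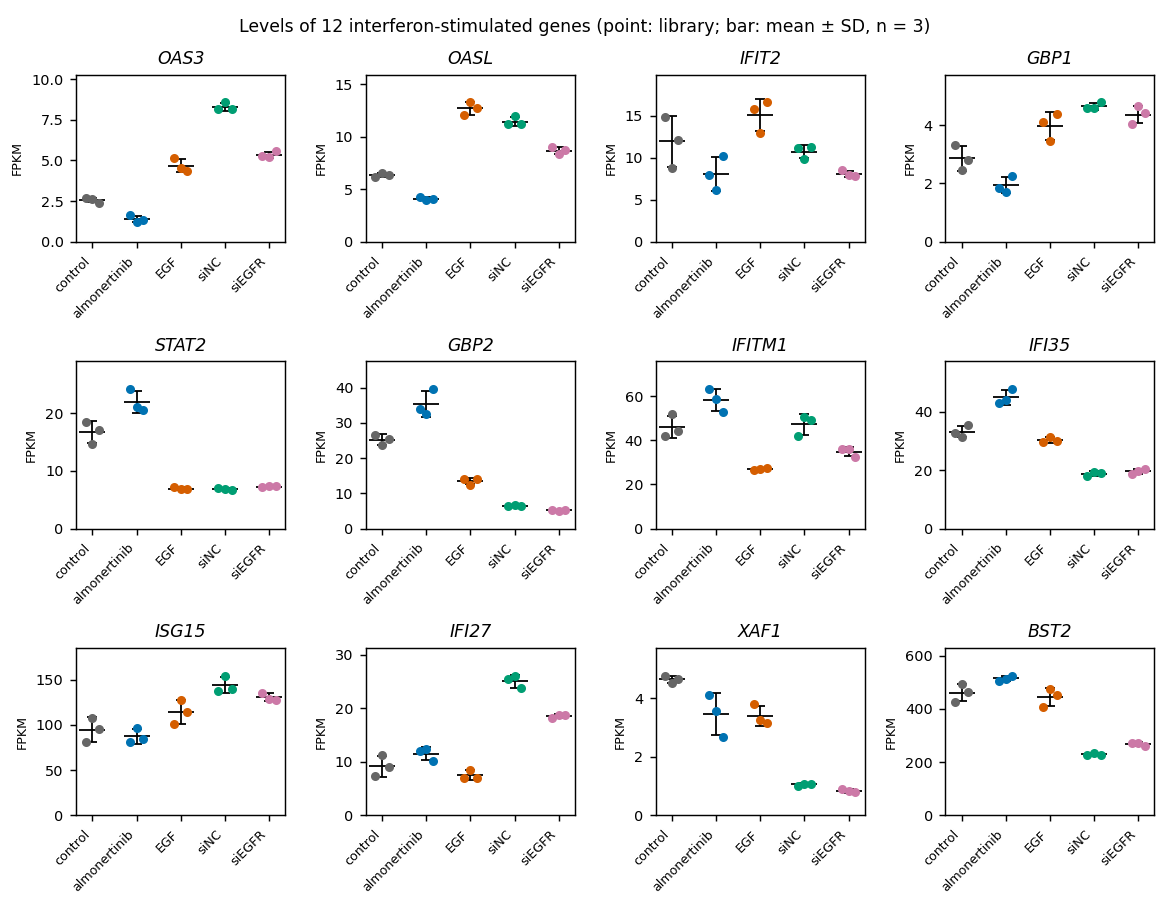
FPKM on linear axes from 0 in each library (points; bars are mean ± SD, n = 3) for 12 of the genes in the 5 groups. STAT2 and GBP2 are highest with almonertinib and lower with EGF and both siRNAs, whereas OAS3 and OASL are lowest with almonertinib.

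The control siRNA against control moved GBP2 and XAF1, among others, to 25.7% and 22.9% of their control means. Of the 40 genes 15 rose (37.5%) and 14 fell (35%), beside 34.4% and 31.6% of all loci (66% either way), so here too the shares lie near the background. OAS3, IFI27, IFI44, OAS1 and ISG20 rose most, and GBP2, XAF1, STAT2, IFITM3 and BST2 fell most. The median change was 0.06, beside 0.03 over all loci. On the log2(FPKM + 1) scale 7 called genes passed 2-fold, and by the ratio of mean FPKM 12 did, OAS1, ISG20, MX2, SAMD9L and BST2 among them. The labels do not say how siNC cells were handled apart from the siRNA, so the siRNA and the handling cannot be told apart.

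OAS3 rose from 2.70, 2.60 and 2.40 to 8.14, 8.57 and 8.15 FPKM (1.38 ± 0.07, adjusted p = 2.49e-09). IFI27, a mitochondrial interferon-induced protein, rose from 7.33, 11.3 and 8.98 to 25.5, 26.0 and 23.7 FPKM (1.37 ± 0.12, adjusted p = 3.78e-07). IFI44 rose from 14.2, 10.1 and 10.9 to 26.8, 27.5 and 28.4 FPKM (1.18 ± 0.15, adjusted p = 1.21e-05). Every siNC library lay above every control library for these genes. OAS1 rose from 2.01, 1.95 and 1.81 to 4.56, 4.69 and 4.92 FPKM (0.97 ± 0.06, adjusted p = 5.66e-09). ISG20 rose to 2.5, 2.91 and 2.80 FPKM (0.92 ± 0.09, adjusted p = 9.95e-07), OASL to 11.2, 12 and 11.2 FPKM (0.76 ± 0.05, adjusted p = 3.09e-08), and ISG15 to 137, 154 and 140 FPKM (0.60 ± 0.11, adjusted p = 0.000269). The smaller rises were IFIT5 (0.66), IFI6 (0.65), GBP1 (0.55), IFIT3 (0.51), IFI44L (0.51), PARP9 (0.47), DTX3L (0.42) and USP18 (0.40).

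In the other direction, GBP2 fell from 26.6, 23.7 and 25.5 to 6.43, 6.74 and 6.31 FPKM (-1.81 ± 0.07, adjusted p = 2.2e-10). XAF1 fell from 4.76, 4.53 and 4.68 to 1.02, 1.08 and 1.09 FPKM (-1.45 ± 0.10, adjusted p = 3.12e-08). STAT2 fell to 7.02, 6.89 and 6.70 FPKM (-1.17 ± 0.07, adjusted p = 1.78e-08). None of the 3 overlapped with control. IFITM3 fell from 365, 526 and 446 to 209, 225 and 199 FPKM (-1.06 ± 0.14, adjusted p = 1.5e-05), and BST2 from 427, 494 and 464 to 227, 235 and 228 FPKM (-1.0 ± 0.06, adjusted p = 1.93e-08). IFI35 (-0.79), SAMD9L (-0.76), MX2, a GTPase that restricts retroviruses (-0.67), UBE2L6, the conjugating enzyme for ISG15 (-0.67), PARP14 (-0.58), DHX58 (-0.48), IRF9 (-0.43), IRF1 (-0.26) and IRF7 (-0.24) fell by less. In all, 32 genes (80%) did not overlap, beside 68.8% of all loci. Of the genes with a promoter window, the ISRE core was in 12 of the 13 that rose and 3 of the 10 that fell, beside 24 of 36 over the list. The share with the core among all loci that rose or fell was not counted. The leukocyte marker CD14, which carries that list's sum, was lower in the siRNA groups too, and its part in these values was not tested.

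EGFR siRNA against control siRNA asks how these genes differ when both groups received an siRNA and 1 of them was aimed at EGFR. The EGFR transcript was lowered and not lost, at 28.6 to 29.9 FPKM in siEGFR. It was at 49.4 to 49.8 FPKM in siNC and 22.3 to 28.0 in control. Effects of the siRNAs other than on EGFR were not tested. Of the 40 genes 8 fell (20%), beside 3.19% of all loci, and 0 rose, beside 2.27%, with 5.46% of loci called either way. The genes that fell were OAS1, OAS3, OASL, IFITM1, IFIH1, GBP2, ISG20 and IFI44L. The siNC libraries are the reference here and the treated group of the contrast before, so both contrasts share them. OAS1, OAS3, OASL, ISG20 and IFI44L had risen in siNC. Their siEGFR means (2.58, 5.35, 8.69, 1.66 and 0.953 FPKM) were not below control (1.92, 2.57, 6.36, 0.980 and 0.942). Those of IFITM1, IFIH1 and GBP2 (34.8, 1.96 and 5.17) were below control (46.1, 2.51 and 25.3). At an unadjusted p under 0.05 limma gave 1 higher and 15 lower, a threshold at which the share of all loci was not counted. With limma-voom on recovered reads 0 were called higher and 9 lower, beside 2.37% and 3.37% of loci. The median change was -0.21, beside 0.01 over all loci, and the changes ran from -0.68 to 0.22.

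OAS1 was at 4.56, 4.69 and 4.92 FPKM in siNC and 2.62, 2.64 and 2.5 in siEGFR (-0.68 ± 0.06, adjusted p = 1.1e-05). OAS3 was at 8.14, 8.57 and 8.15 FPKM in siNC and 5.27, 5.20 and 5.57 in siEGFR (-0.55 ± 0.07, adjusted p = 0.000524). IFI44L was at 1.78, 1.64 and 1.85 FPKM and 0.969, 0.916 and 0.973 FPKM in the same groups (-0.50 ± 0.09, adjusted p = 0.0047). The groups did not overlap for these genes. ISG20 fell from 2.5, 2.91 and 2.80 to 1.68, 1.59 and 1.70 FPKM (-0.49 ± 0.09, adjusted p = 0.00525). IFIH1, the sensor MDA5 of long double-stranded RNA, fell from 3.16, 2.91 and 3.03 to 2.21, 1.78 and 1.90 FPKM (-0.45 ± 0.10, adjusted p = 0.0198). IFITM1 fell from 41.9, 50.6 and 49.0 to 36.0, 35.8 and 32.5 FPKM (-0.43 ± 0.09, adjusted p = 0.0141). OASL fell from 11.2, 12 and 11.2 to 9.0, 8.35 and 8.72 FPKM (-0.36 ± 0.05, adjusted p = 0.000965), and GBP2 from 6.43, 6.74 and 6.31 to 5.19, 5.13 and 5.19 FPKM (-0.28 ± 0.07, adjusted p = 0.0407). Of the 6 genes that fell and have a promoter window, 5 hold the ISRE core.

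The groups separated for more genes than passed the test. In 33 of the 40 genes (82.5%) the siEGFR and siNC libraries did not overlap, 31 lower and 2 higher. Over all loci 40.5% did not overlap, made up of 17.9% that were lower and 22.7% that were higher. BST2 was higher in siEGFR, at 273, 271 and 261 FPKM against 227, 235 and 228 in siNC (0.22 ± 0.06, adjusted p = 0.0711). IFI27 was at 25.5, 26.0 and 23.7 FPKM in siNC and 18.2, 18.8 and 18.8 in siEGFR (-0.41 ± 0.12, adjusted p = 0.0676). IFI44 was at 26.8, 27.5 and 28.4 FPKM in siNC and 19.7, 20.4 and 19.1 in siEGFR (-0.46 ± 0.15, adjusted p = 0.102). ISG15 (-0.14 ± 0.11, adjusted p = 0.618) and STAT2 (0.07 ± 0.07, adjusted p = 0.72) did not pass. In a fit of these 6 libraries alone 25 genes fell and BST2 rose, where 9.75% of all loci fell and 10.8% rose. With GC and length trends removed 21 fell, beside 7.17% of loci, and without siNC 2, siNC 3 or siEGFR 3 the count was 5, beside 2.03%, 1.99% and 1.91% of loci.

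**Figure D4:**
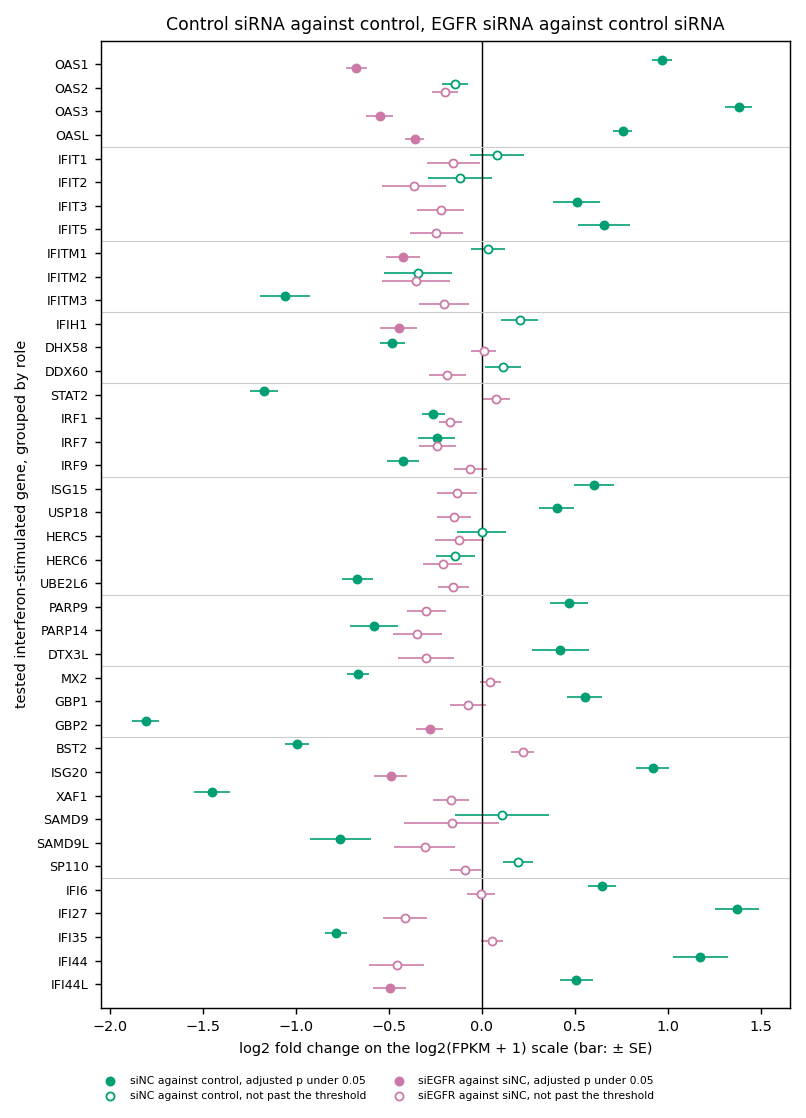
Log2 fold changes on the log2(FPKM + 1) scale (points; bars are ± SE, 3 libraries per group) of the 40 tested genes for siNC against control and for siEGFR against siNC, with filled points past the threshold. The siNC points spread to both sides of 0, from GBP2 at -1.81 to OAS3 at 1.38, while nearly all siEGFR points lie at or left of 0.

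Whether the drug and the siRNA moved a gene by different amounts was tested as the almonertinib effect minus the siEGFR effect. In 7 of the 40 genes (17.5%) the difference was above 0 and passed, beside 5.95% of all loci, and in 0 it was below 0 and passed, beside 7.71%, with 13.7% of loci called either way. At an unadjusted p under 0.05 limma gave 13 above and 2 below, again with no share of all loci counted. With limma-voom 6 were called above and 0 below, beside 4.78% and 8.83% of loci. The median difference was 0.03, beside -0.07 over all loci. The 7 genes were OAS1, IFITM1, IRF7, GBP2, ISG20, IFI27 and IFI35. For IFITM1 the drug's change was 0.33 and that of the siRNA -0.43, a difference of 0.76 ± 0.13 (adjusted p = 0.00212). For GBP2 the changes were 0.46 and -0.28, a difference of 0.74 ± 0.10 (adjusted p = 0.000555). These 2 genes passed in both contrasts in opposite directions in the fit of all libraries. The fall of GBP2 in siEGFR did not pass when any 1 of the siNC or siEGFR libraries was left out, and that of IFITM1 did not without siNC 2, siNC 3 or siEGFR 3. The rise of IFITM1 with the drug did not pass without control 1 or without almonertinib 1. OAS3 fell in both, by 0.57 with the drug and by 0.55 with the siRNA, with a difference of -0.02 ± 0.10 (adjusted p = 0.888).

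The 6 genes that were not tested are RIGI, the RNA sensor also called DDX58, the GTPase MX1, RSAD2, which makes a chain-terminating nucleotide, CMPK2, TRIM22 and EPSTI1. MX1, often used as an interferon readout, lay between 0.163 and 0.488 FPKM over the 15 libraries. That was 64 to 229 reads per library over a gene length of 17984 bases, so its low FPKM goes with a long gene. RSAD2 was at 0.318, 0.307 and 0.245 FPKM in control, 0.175, 0.191 and 0.140 with almonertinib, and 0.676, 0.523 and 0.642 with EGF. TRIM22 was at 0.462, 0.425 and 0.383 FPKM in control and between 0.0283 and 0.0589 in the siRNA libraries. These genes stayed below 1 FPKM in every library and were left out of the main fit. Without the filter on low values, RIGI fell with almonertinib, beside 6.62% of loci. With EGF, RSAD2 rose and TRIM22 fell, beside 10.1% and 15.3%. In siNC against control RSAD2 and CMPK2 rose and MX1 and TRIM22 fell, beside 18.3% and 18.6%. RSAD2 and CMPK2 fell in siEGFR against siNC, beside 1.88%. Reads could also be shared in some tested genes: IFITM1 and IFITM2 have 351 annotated exon bases in common and the IFITM genes are near copies, and PARP9 and DTX3L overlap by 217 bases on opposite strands. Among others, IRF9 shares 1838 exon bases with AL136295.5 and GBP2 621 with GBP7, on the same strand. XAF1 shares 2535 with PRAL and IRF1 1716 with C5orf56, on opposite strands. The mean FPKM was 0.114 for AL136295.5, 0 for GBP7, 0.031 for PRAL and 0.47 for C5orf56. The strand setting of the counting is not given in the sources used here, so values of such pairs are uncertain.

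Upstream of the list, few interferon transcripts were seen. Of 21 interferon genes in the table, 11 had no read in any library, and only IFNE, an epithelial type I interferon, reached the filter, with at most 1.61 FPKM. Of 16 receptor and signalling genes 13 were tested. With almonertinib 1 of them rose and 5 fell, with EGF 2 rose and 3 fell, in siNC 3 rose and 4 fell against control, and in siEGFR 0 rose and 1 fell against siNC. Over all loci 12.1% rose and 18% fell with almonertinib, and 22% and 27.3% with EGF. In siNC the shares were 34.4% and 31.6%, and in siEGFR 2.27% and 3.19%. IFNGR2, a subunit of the interferon gamma receptor, was at 17.7, 21.9 and 19.5 FPKM in control, 13.2, 12.4 and 12 with almonertinib and 29, 30.9 and 29 with EGF. It fell with the drug (-0.61 ± 0.07), rose with EGF (0.57 ± 0.07) and fell in siEGFR against siNC (-0.36 ± 0.07, adjusted p = 0.00741). IFNGR1, the other subunit, fell with both the drug (-0.35) and EGF (-0.72).

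Of 23 genes that sense nucleic acids or relay that signal 16 were tested. With almonertinib 4 rose and 5 fell, with EGF 6 rose and 4 fell, in siNC 6 rose and 6 fell, and in siEGFR 0 rose and 1 fell. The DNA sensor CGAS was at 1.15, 0.378 and 0.479 FPKM in control and 2.10, 1.28 and 2.15 with EGF (0.78 ± 0.16, adjusted p = 0.00112), and its adaptor STING1 fell with EGF from 25.0, 26.4 and 27.8 to 18.5, 19.9 and 18.4 FPKM (-0.46 ± 0.05, adjusted p = 1.02e-05). STING1 was also the gene that fell in siEGFR (-0.22 ± 0.05, adjusted p = 0.0298). Of 36 further interferon targets 29 were tested, and 4 rose and 7 fell with almonertinib, 4 and 7 with EGF, 6 and 14 in siNC, and 0 and 3 in siEGFR. The shares of all loci beside these counts and those of the sensing genes are the ones given above for the signalling genes. TRIM14, an adaptor of RNA and DNA sensing, fell from 9.55, 7.43 and 7.92 to 3.62, 3.57 and 3.48 FPKM with almonertinib (-1.02 ± 0.08, adjusted p = 3.19e-06) and rose with EGF (0.65 ± 0.08, adjusted p = 2.12e-05). LAMP3, a lysosomal membrane protein, was at 2.56, 2.42 and 2.56 FPKM in siNC and 0.388, 0.302 and 0.240 in siEGFR (-1.42 ± 0.07, adjusted p = 1.2e-07). In control, almonertinib and EGF it stayed at or below 0.176 FPKM. The genes named from these lists were picked after their values were seen.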

How the data were processed

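Poly(A) RNA of NCI-H1975 cells was sequenced in 15 libraries, 5 groups of 3, grouped by their labels. The authors deposited FPKM values for 61248 loci, and the submitters' notes on processing list HISAT2, featureCounts, DESeq2 and the build hg19, with neither roles nor versions. Symbols came from a list of names by Ensembl ID, which matched 60463 loci. The deposited values are unrounded, so whole reads and library totals (18009903 to 34908302) were recovered from their steps: 100% of 431735 positive values were whole within 0.01 reads.

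Loci with at least 1 FPKM in at least 3 libraries (14999) were kept, and log2(FPKM + 1) went into limma (version 3.58.1, R 4.3.3) with a variance trend, robust moderation and 1 coefficient per group over all 15 libraries. Tests were two-sided, with Benjamini-Hochberg adjusted p under 0.05 over all loci as the threshold. In the text, rose and fell refer to genes past it. The added 1 shrinks the change of low genes. Each SE rests on a spread shared by all 15 libraries, also those outside the contrast. Replicates were not equally close. The chi-square of reads between replicate pairs, per degree of freedom, reached 48.7 in control, 40.9 with almonertinib and 28.9 with EGF. It was at most 4.75 in siNC and 2.71 in siEGFR, where 1 is sampling noise. The shared spread can thus be too small for some contrasts and too large for others. The changes were not centred on the median of all loci and are to be read beside it. TPM scaling moved that median from -0.07 to -0.18 for the difference between the drug and siRNA effects. The steps were tested on simulated data, and summaries and plots used pandas 2.3.3, matplotlib 3.10.9 and numpy 2.4.6 under Python 3.11.15.

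The genes and the lists of related genes were chosen with earlier results of these data known, and the responses described in full are, per comparison, up to 6 called genes in each direction with the largest changes and no overlap of libraries, the 3 most abundant genes, the lead gene of a role group and others of interest. Genes with the most similar pattern are not given, because 5 group means are too few for a correlation. Promoter windows came from RefSeq on GRCh38.p14; the deposited values carry no coordinates. Exon overlaps came from GENCODE, which is on another build than hg19. The alternatives were a pseudocount of 0.1, no filter, TPM or median-ratio scaling, no variance trend, only the groups compared, a replicate block, limma-voom on recovered reads, a threshold of 0.01 and leaving out each library in turn. A correction for GC content and gene length (splines, 4 degrees of freedom) and a fit without control 1 and almonertinib 3 were chosen after seeing the data. A gene of the signalling list is not reported here, though it stayed in every test and count.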

Additional observations from a re-analysis of the deposited data

Results flagged for a closer look

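In 7 genes the almonertinib effect and the siEGFR effect differed by the test of the difference itself (limma, Benjamini-Hochberg adjusted p under 0.05), each with a more positive value for the drug. The 2 effects share no libraries. The difference on the log2(FPKM + 1) scale was 0.4959 for OAS1 (adjusted p = 0.00135), which fell in both contrasts, by 0.18 with the drug and by 0.68 with the siRNA. It was 0.7579 for IFITM1 and 0.744 for GBP2, which rose with the drug and fell with the siRNA, though the fall of GBP2 did not pass when any 1 siRNA library was left out and that of IFITM1 did not without siNC 2, siNC 3 or siEGFR 3. It was 0.7227 for IFI27 (adjusted p = 0.0134), which passed in neither contrast alone (0.31 and -0.41). The difference was 0.3696 for IFI35 (adjusted p = 0.0114), which rose with the drug and did not pass with the siRNA (0.05). IRF7 differed by 0.535 (adjusted p = 0.0258) and ISG20 by 0.4067 (adjusted p = 0.0496). Of the 22 alternatives 10 ended the call of IRF7 (adjusted p up to 0.0628) and 15 that of ISG20 (up to 0.121), while for OAS1, IFITM1, GBP2 and IFI27 it stayed under the threshold. For IFI35 it passed in all but the fit with GC and length trends removed, where it was 0.103.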

How the results depend on the processing

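Of 109 called gene results, 1623 of 1786 alternative values kept direction and call, 161 lost the call and 2 reversed, both with GC and length trends removed: OAS1 with almonertinib (0.0007) and BST2 in almonertinib against EGF (-0.0199). The shares of all loci moved with the settings too, and were not counted at threshold 0.01. For almonertinib against control, the rises (7) were 4 with TPM scaling, 2 in a fit of the groups compared and 11 with the replicate block. The shares of loci beside them were 7.29%, 2.66% and 14.1%. The falls (10) were 5 at threshold 0.01 and 2 in the fit of the groups compared, the latter beside 3.05%. For EGF the rises (6) were 11 with median-ratio scaling, 10 with GC and length trends removed and 12 without control 1 and almonertinib 3. Beside these, 24.7%, 28.8% and 28.0% of loci rose. For siEGFR the rises (0) were 1 with TPM scaling, the groups compared, the replicate block, the GC and length removal and the omission of both libraries. In that order 2.1%, 10.8%, 2.88%, 6.26% and 5.35% of loci rose. Its falls (8) were 5 at threshold 0.01, 25 in the groups compared, 21 with GC and length removed and 13 without both libraries. Beside the last 3 counts, 9.75%, 7.17% and 5.59% of loci fell. For the difference between drug and siRNA, the positive count (7) was 3 at threshold 0.01. It was 13 with GC and length removed and 11 without both libraries, beside 10.7% and 7.22% of loci. The negative count (0) was 1 with TPM scaling, beside 11.7%. The cause was not tested. Leaving out each library in turn gave 5 to 9 rises and 6 to 21 falls with almonertinib, beside 8.20% to 13.9% and 10.8% to 24.2% of loci. With EGF it gave 5 to 11 rises (11 without control 1), beside 18.45% to 24.5%. With siEGFR there were 0 rises and 5 to 7 falls, beside 1.01% to 1.2% and 1.91% to 2.33%. Positive differences numbered 5 to 10, beside 4.05% to 8.07%. The falls with almonertinib moved by over 1.5 times without control 1, control 2, almonertinib 1 or almonertinib 3. The counts of falls with EGF, of both directions in siNC, and of almonertinib against EGF stayed within 1.5 times of the reported ones in every alternative. Whether the replicate numbers pair the libraries could not be decided. Correlations of same-numbered deviations ran from -0.17 to 0.60, and libraries with different numbers were not compared. For replicate 2 they were 0.54 for control with almonertinib, 0.60 for control with EGF and 0.53 for almonertinib with EGF. The main fit used no pairing. At these depths, levels below 1 FPKM rest on few reads in short genes.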
